A study of Sus scrofa with 8 samples.

Results

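Amino acid transporter genes were followed through maps of H3K27ac, a histone acetylation that marks promoters and enhancers in use, in a pair of pig cell types. The set held every protein-coding gene on chromosomes 1 to 18 whose RefSeq symbol begins with SLC1A, SLC3A, SLC6A, SLC7A, SLC36A, SLC38A or SLC43A. These were 54 genes, against 16298 named protein-coding genes over those chromosomes and X. No island value entered the choice of a single gene, but the families as a whole were selected on the acetylated lengths of these same libraries. The pgEpiSC libraries, numbered 1 and 4, came from pre-gastrulation epiblast stem cells of the embryonic day 10 epiblast. The pEF libraries, numbered 1 and 2, came from embryonic fibroblasts of day 30. No treatment or genetic change is named for either type, and no label tells whether the paired libraries share a line, an animal or a culture, so every error given here is the spread between libraries, which may be technical. Where 4 values are given, those of pgEpiSC 1 and 4 come first, followed by pEF 1 and 2.

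Cells take up amino acids through carrier proteins of several solute carrier (SLC) families. SLC1 proteins carry glutamate or exchange neutral amino acids, SLC6 proteins couple uptake of neurotransmitters and amino acids to sodium and chloride, and SLC7 light chains reach the cell surface bound to a heavy chain of the SLC3 family. SLC36 carriers move amino acids together with protons, SLC38 carriers take up glutamine and other small neutral amino acids, and SLC43 carriers let large neutral amino acids pass down their gradient. Amino acids that enter are also sensed, at the lysosome by the mTORC1 kinase complex and by a stress pathway that starts at uncharged transfer RNA. RNA and protein levels of the carriers and sensors were not analysed here.

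Acetylated length was the number of kb covered by islands, the stretches in the authors' lists. It was counted in a window made of the gene and 10 kb beyond each end. No FDR limit was applied to the lists, and some islands stood below input. An island inside SLC7A2 stood at 0.581 times input in pgEpiSC 4 and 0.782 times in pEF 2, so length alone does not mean enrichment. The 54 genes lay on 16 chromosomes and were 6.7 to 219.3 kb long, with a median of 42.9 kb. In 34 of them the window also held part of another gene, and 8 shared window with another transporter: SLC6A12 with SLC6A13, SLC6A18 with SLC6A19, SLC36A2 with SLC36A3, and SLC7A6 with SLC7A6OS. The last of these enters by the start of its symbol only, as the neighbour of SLC7A6, and belongs to no carrier family. A further 4 genes with such symbols on chromosome X were no members, nor was SLC7A5, the main light chain for leucine, which the gene table does not class as protein-coding. SLC7A5 had 44.3, 44.3, 16.6 and 13.8 kb of islands in a window of 48.4 kb.

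The libraries differed in kind between the types. The lists held 64620, 74208, 62261 and 57790 islands that covered 408.5, 413.9, 272.9 and 274.5 Mb, from 29679982 to 46383051 ChIP reads. The median island stood 1.8 and 1.67 times over input in pgEpiSC and 3.47 and 3.46 times in pEF, so pgEpiSC islands were longer and lower. This difference in height bears on every length below, and lengths are therefore also given for islands of at least 2-fold over input, which were 37.1, 27.8, 84.7 and 85.6% of the lists. In bulk cells, fewer cells with a mark and less of the mark per cell cannot be told apart.

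Of the 54 transporter genes, 18 had a greater acetylated length in pgEpiSC and 8 in pEF by limma at an adjusted p under 0.05 over all genes, and 28 did not pass. That was 33.3% and 14.8% of the set, beside 31.9% and 10.9% of all genes. The set was proposed with such lengths known, so these shares and the differences below are a description from which nothing is read. The median log2 difference was 0.59 over the transporters and 0.46 over all genes tested. All differences are pgEpiSC minus pEF. Those in length are on the log2(kb + 1) scale with the standard error from limma. Those in reads of shared regions, further below, are log2 differences from edgeR, with a standard error worked back from its test statistic. Where a type had no island, the size of the difference depends on the added 1 kb and is not a fold.

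**Figure D1:**
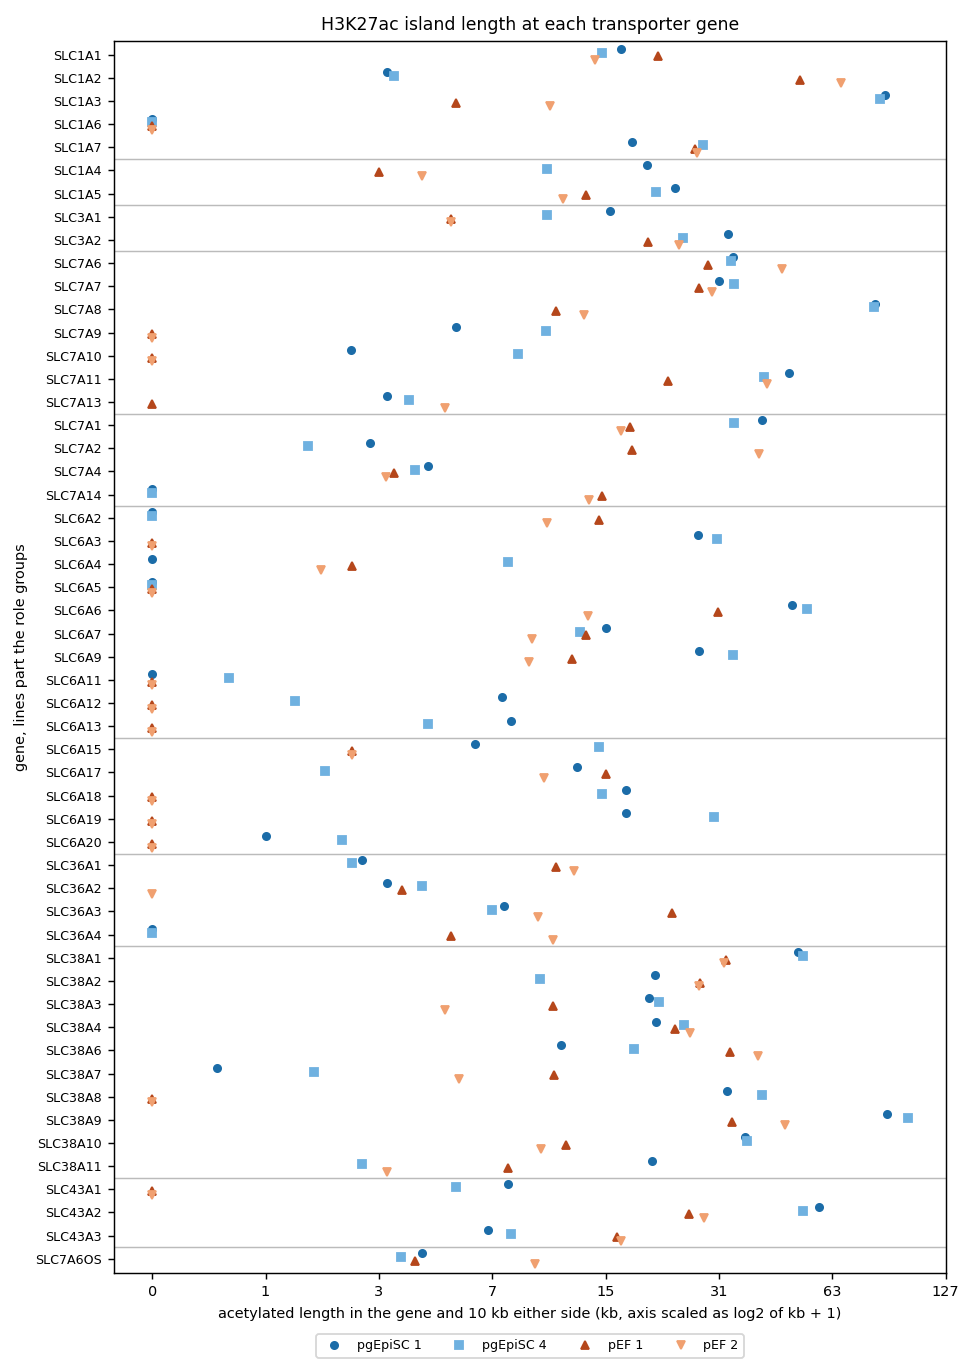
Acetylated length of the transporter genes in kb, on an axis scaled as log2(kb + 1), with 1 symbol for each library and lines between the role groups. SLC1A3 and SLC7A8 stand at over 80 kb in both pgEpiSC libraries, SLC1A2 is long in pEF alone, and SLC1A6 and SLC6A5 lie at 0 in all 4 libraries.

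Glutamate carriers split by gene. SLC1A3, the carrier known from astrocytes, had 87.6, 84.8, 5.4 and 10.4 kb, a log2 difference of 3.35 ± 0.34 that passed. SLC1A2, the main glutamate carrier of the forebrain, had 3.2, 3.4, 51.6 and 66.4 kb, and its difference of -3.79 ± 0.17 passed in the other direction. For each gene the libraries of the types did not overlap, and the lengths at these glial glutamate carriers differed in opposite directions. SLC1A1 had 16.6, 14.7, 21 and 14 kb and SLC1A7 had 17.8, 28, 26.7 and 27 kb, with overlapping libraries, and SLC1A6, a carrier of cerebellar neurons, had no island in any library.

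At SLC1A3, islands covered 78.5 and 76% of the window in pgEpiSC and 4.8 and 9.3% in pEF. In pgEpiSC 1 a stretch of islands ran from beyond the window to 22.7 kb inside the gene end with the lower coordinate, at 2.4 times over input, and pgEpiSC 4 had 28.4 kb at 2.5 times in the same place. In pEF the strongest islands, of 4.41 and 4.16 times over input, lay within the gene at about the same place in both libraries, from 45.5 to 48.9 kb and from 45.9 to 49.7 kb. Over the lower-coordinate end, the pEF islands stood at 1.77 and 2.15 times, under those of pgEpiSC in that place. SLC1A2 in pEF had 12 and 10 islands spread over the gene, with the tallest at 7.67 and 8.83 times over input, against 1 island of 1.4 and 1.97 times in each pgEpiSC library.

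The neutral exchangers of SLC1 both had more island length in pgEpiSC, and 1 of the 2 passed. SLC1A5, the glutamine exchanger of proliferating cells, had 23.4, 20.8, 13.2 and 11.3 kb, a difference of 0.80 ± 0.13. SLC1A4, which carries serine and alanine, had 19.6, 10.2, 3 and 4.2 kb, with a difference of 1.74 ± 0.41 that did not pass. At SLC1A5 the tallest island was 3.15 and 2.9 times over input in pgEpiSC and 11 and 7.52 times in pEF. The type with the shorter islands thus had the taller ones, as in the lists at large. Among genes with an island in the same library they stood at percentiles 59.7, 61.6, 70.5 and 46.7, which overlap between the types.

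Neither heavy chain passed. SLC3A2, the partner of most light chains, had 32.9, 24.7, 19.7 and 24.1 kb, with a difference of 0.37 ± 0.21, and the libraries of the types were separated by only a narrow gap. SLC3A1, the partner of SLC7A9 in kidney and gut, had 15.4, 10.2, 5.21 and 5.21 kb.

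Among 7 light chains with a value, 2 had a greater acetylated length in pgEpiSC, none in pEF, and 5 did not pass. SLC7A8, a light chain for large neutral amino acids, was the most completely covered gene of the set in pgEpiSC. Its islands had 82.4, 81.6, 10.8 and 13 kb, a difference of 2.69 ± 0.12, which was 94.5 and 93.6% of the window in pgEpiSC and 12.4 and 14.9% in pEF. The widest island over SLC7A8 held 60.1 and 45.8 kb of the window in pgEpiSC and 3.2 and 4.4 kb in pEF. SLC7A9, the cystine and basic amino acid light chain, had 5.4, 10.1, 0 and 0 kb (3.08 ± 0.33), in islands that stood no more than 1.41 and 1.38 times over input. With islands at an FDR under 1e-10 none of the SLC7A9 length was left (0.00), and without the flanks its difference of 2.11 did not pass. SLC7A8 and SLC7A9 thus passed with islands of different kinds, wide at the former and low at the latter.

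SLC7A11, which imports cystine in exchange for glutamate and so feeds glutathione synthesis, had 48, 41.2, 22.4 and 42 kb, with a difference of 0.52 ± 0.37 that did not pass. One pEF library lay within the pgEpiSC values and the other below them. Its islands differed in place and height. In pEF the tallest ones, at 6.29 and 7.36 times over input, reached from 2.7 and 2.5 kb outside the lower-coordinate gene end to 9.5 and 14.1 kb inside it, where pgEpiSC islands stood at 1.36 to 1.85 times. SLC7A6 and SLC7A7, which exchange basic for neutral amino acids, had 29 to 46 kb and 27.4 to 34 kb over the 4 libraries and did not pass. SLC7A10 had 2.37, 8.38, 0 and 0 kb, and SLC7A13 had at most 5 kb in any library.

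**Figure D2:**
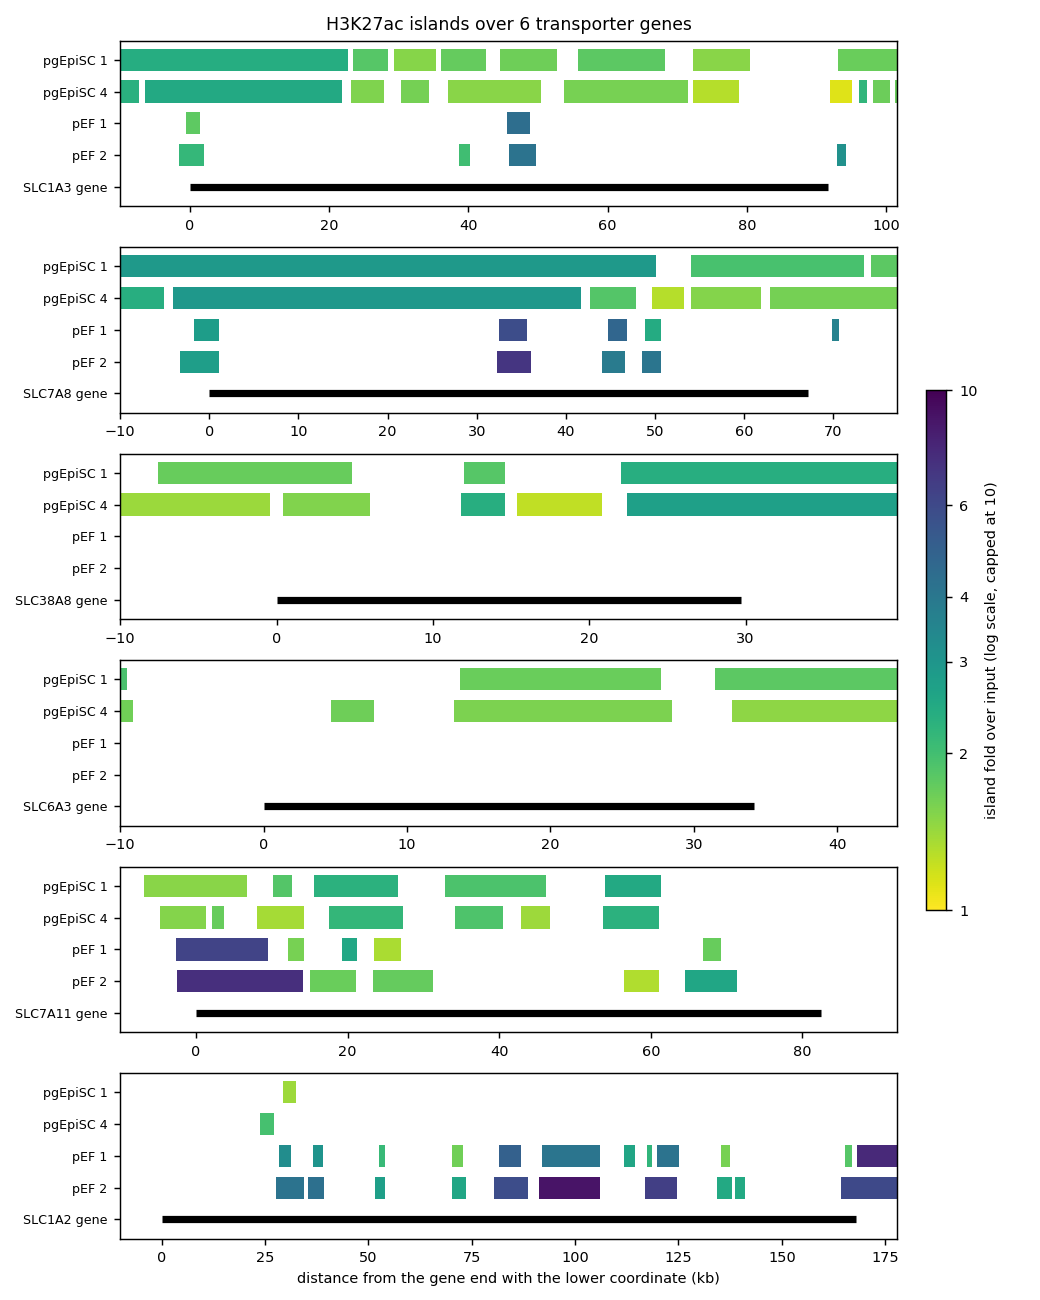
Islands in each library over 6 transporter genes and 10 kb beyond each end, by distance in kb from the gene end with the lower coordinate, coloured by fold over input on a log scale. In pgEpiSC, SLC7A8 is covered almost throughout and SLC1A3 over most of its window, by islands of about 1 to 3 times over input. The pEF islands at SLC1A2 and SLC7A11 are shorter and reach over 7 times.

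The cationic carriers, which bring in arginine and lysine, differed from one another. SLC7A1, the widespread arginine carrier, had 40.6, 34.2, 17.6 and 16.6 kb, a difference of 1.08 ± 0.12 that passed. SLC7A2, the carrier known for arginine supply to activated macrophages and liver, had 2.8, 1.6, 17.8 and 40 kb (-3.14 ± 0.52), and passed in favour of pEF. The arginine carriers thus passed in opposite directions, with no overlap of the libraries at either gene. SLC7A14, a lysosomal member of this branch, had no island in pgEpiSC and 14.7 and 13.5 kb in pEF (-3.92 ± 0.13). SLC7A4 had 3.18 to 4.4 kb in all libraries and did not pass. At SLC7A1 the tallest island stood at 2.7, 3.55, 21 and 19.5 times over input, so the longer pgEpiSC islands were again the lower ones.

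The SLC6 carriers of monoamines, GABA, glycine, betaine, taurine and proline had 4 genes with greater length in pgEpiSC, 1 in pEF and 6 that did not pass, of 11. SLC6A3, the dopamine carrier, had 27.2, 30.6, 0 and 0 kb (4.90 ± 0.17). SLC6A13, a GABA and taurine carrier, had 8, 4.4, 0 and 0 kb (2.80 ± 0.30). Neither gene had an island in pEF. SLC6A9, a glycine carrier, had 27.4, 33.8, 12 and 9 kb (1.46 ± 0.21). SLC6A2, the noradrenaline carrier, was the reverse of its dopamine relative, with no island in pgEpiSC and 14.4 and 10.2 kb in pEF (-3.72 ± 0.21).

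SLC6A3 is a nervous system gene by its usual role, and its islands were low: the tallest stood 1.93 and 1.66 times over input, and none of its length was left once islands under 2-fold were set aside. SLC6A2 had its tallest pEF islands at 9.76 and 7.74 times over input, inside the gene and away from its ends. SLC6A6, the taurine carrier, had 49, 54, 30.8 and 13.4 kb (1.29 ± 0.46) and did not pass, although its libraries did not overlap between the types. SLC6A7 and SLC6A4, carriers of proline and serotonin, had overlapping libraries, SLC6A11 had 0.6 kb in 1 library alone, and SLC6A12 had 7.52 and 1.4 kb in pgEpiSC and none in pEF. SLC6A5, the glycine carrier of spinal interneurons, had no island anywhere.

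Of 5 SLC6 amino acid carriers 3 passed, each with length in pgEpiSC and none in pEF. SLC6A19, which takes up neutral amino acids in gut and kidney, had 17.1, 30.1, 0 and 0 kb (4.57 ± 0.35). SLC6A18, its neighbour and relative, had 17.1, 14.7, 0 and 0 kb (4.07 ± 0.15). Their windows overlap, and that of SLC6A18 also holds part of TERT, the telomerase subunit gene, so the islands are not separate evidence for each gene. SLC6A20 had 1, 2.2, 0 and 0 kb, the least length of any gene that passed. The tallest pgEpiSC islands were low, at 1.82 and 1.63 times over input for SLC6A19 and 1.82 and 1.71 for SLC6A18. Those of SLC6A20 stood at 1.73 and 1.04 times. At all 3 genes, no length was left with islands of at least 2-fold. SLC6A15 had 6.2, 14.4, 2.4 and 2.4 kb and SLC6A17 had 12.4, 1.88, 15 and 10 kb, and neither of these neuronal carriers passed.

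Of 4 proton-coupled carriers, 2 passed in favour of pEF and none of pgEpiSC. SLC36A1, an exporter of amino acids from the lysosome, had 2.6, 2.4, 10.8 and 12.2 kb (-1.83 ± 0.18), and SLC36A4 had no island in pgEpiSC and 5.2 and 10.6 kb in pEF (-3.08 ± 0.37). The libraries of the types did not overlap at either gene. SLC36A3 had 7.6, 7, 23 and 9.6 kb and SLC36A2 had 3.2, 4.2, 3.6 and 0 kb, which did not pass and came from windows that overlap.

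Among 10 SLC38 carriers, 4 had greater length in pgEpiSC, 1 in pEF, and 5 did not pass. SLC38A8, a glutamine carrier known from the retina, had 32.7, 40.7, 0 and 0 kb (5.23 ± 0.21), the largest difference of the set. SLC38A9, a lysosomal protein that reports arginine to mTORC1, had 88.4, 100.6, 33.6 and 47 kb (1.23 ± 0.22). SLC38A10 had 36.5, 36.9, 11.6 and 9.8 kb (1.69 ± 0.11). The strongest pgEpiSC islands in the SLC38A8 window began 22 and 22.4 kb inside the lower-coordinate gene end and reached the opposite edge of the window, at 2.36 and 2.72 times over input. That window also holds parts of MBTPS1 and NECAB2.

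SLC38A1 and SLC38A2, the system A carriers for glutamine and alanine, are neighbours on the chromosome and differed in direction. SLC38A1 had 50.8, 52.6, 32.4 and 32 kb (0.67 ± 0.07), which passed. SLC38A2, the carrier that cells raise when amino acids run short, had 20.7, 9.71, 27.5 and 27.3 kb (-0.90 ± 0.41) and did not pass, with both pEF libraries above both of pgEpiSC. SLC38A6 had 11.2, 18, 33.2 and 39.6 kb (-1.29 ± 0.28) and was the only SLC38 gene to pass in favour of pEF. SLC38A3, SLC38A4, SLC38A7 and SLC38A11 did not pass. Of these SLC38A7 was nearest to the threshold, with 0.488, 1.69, 10.7 and 5.53 kb, and its window holds part of the neighbouring GOT2.

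All 3 SLC43 facilitators passed. SLC43A2, a carrier of leucine and other large neutral amino acids, had 58.2, 52.6, 25.6 and 28.2 kb (1.02 ± 0.10), and SLC43A1, its closest relative, had 7.8, 5.4, 0 and 0 kb (2.91 ± 0.19). SLC43A3, known as a carrier of purine bases, had 6.8, 8, 16.2 and 16.6 kb (-1.05 ± 0.14). The pair for large neutral amino acids was longer in pgEpiSC and the purine base carrier in pEF. The SLC43A1 islands stood no more than 1.98 times over input in either pgEpiSC library, and none of their length was left with islands of at least 2-fold.

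Presence of islands gave a coarser picture. Islands lay in the window in all 4 libraries for 34 of the 54 genes and in none for 2. In 11 genes both pgEpiSC libraries and neither pEF library had an island, beside 4.46% of all genes, and in 3 genes (SLC7A14, SLC6A2 and SLC36A4) both pEF libraries alone had 1, beside 2.9% of all genes. The 11 include SLC6A12 with SLC6A13 and SLC6A18 with SLC6A19, whose windows overlap. At SLC43A1, SLC7A9, SLC7A10, SLC6A20, SLC6A3, SLC6A18 and SLC6A19 no length was left with islands of at least 2-fold. The 3 genes of pEF kept length under that limit. The libraries of the types did not overlap in length for 28 genes with pgEpiSC above and 11 with pEF above, beside 52.3% and 21.9% of all genes, and overlapped for 15.

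The height asked of an island changed these counts. With islands of at least 2-fold over input alone, 2 transporters had greater length in pgEpiSC (SLC7A8 and SLC38A8) and 13 in pEF, beside 7.06% and 16.5% of all genes. Of the 8 genes longer in pEF, 6 passed again. The 7 that passed only with the taller islands were SLC3A1, SLC6A17, SLC38A7, SLC6A4, SLC7A4, SLC38A11 and SLC38A9, and the last of these had passed in favour of pgEpiSC with all islands. At SLC38A9 the taller islands held 12.4, 11.6, 30.8 and 35.2 kb. SLC7A8 kept 60.1, 50.7, 10.8 and 13 kb under this limit, the greatest length of any transporter in either pgEpiSC library.

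Stricter islands and narrower windows also ended some calls. With islands at an FDR under 1e-10, SLC7A1 (0.18), SLC6A13 (0.63), SLC36A1 (-2.54) and SLC43A3 (-1.72) did not pass. Without the flanks, SLC1A5 (0.32), SLC6A19 (3.05), SLC36A1 (-1.85) and SLC38A6 (-2.71) did not pass.

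Scaling changed the counts too. With each library set to its median gene, which shifts all differences by 0.63, 13 of 52 transporters with an island passed in favour of pgEpiSC and 13 of pEF, beside 22.8% and 24.6% of all genes with an island. Of the 18 longer in pgEpiSC 12 passed again, and SLC38A1, SLC1A5, SLC7A1, SLC43A2, SLC6A20 and SLC38A9 did not. All 8 longer in pEF passed again, joined by SLC38A2, SLC38A4, SLC38A7, SLC1A7 and SLC36A3. SLC7A10 was added for pgEpiSC. The widely expressed uptake carriers SLC1A5, SLC7A1, SLC38A1 and SLC43A2 had centred differences of 0.17, 0.45, 0.04 and 0.38.

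**Figure D3:**
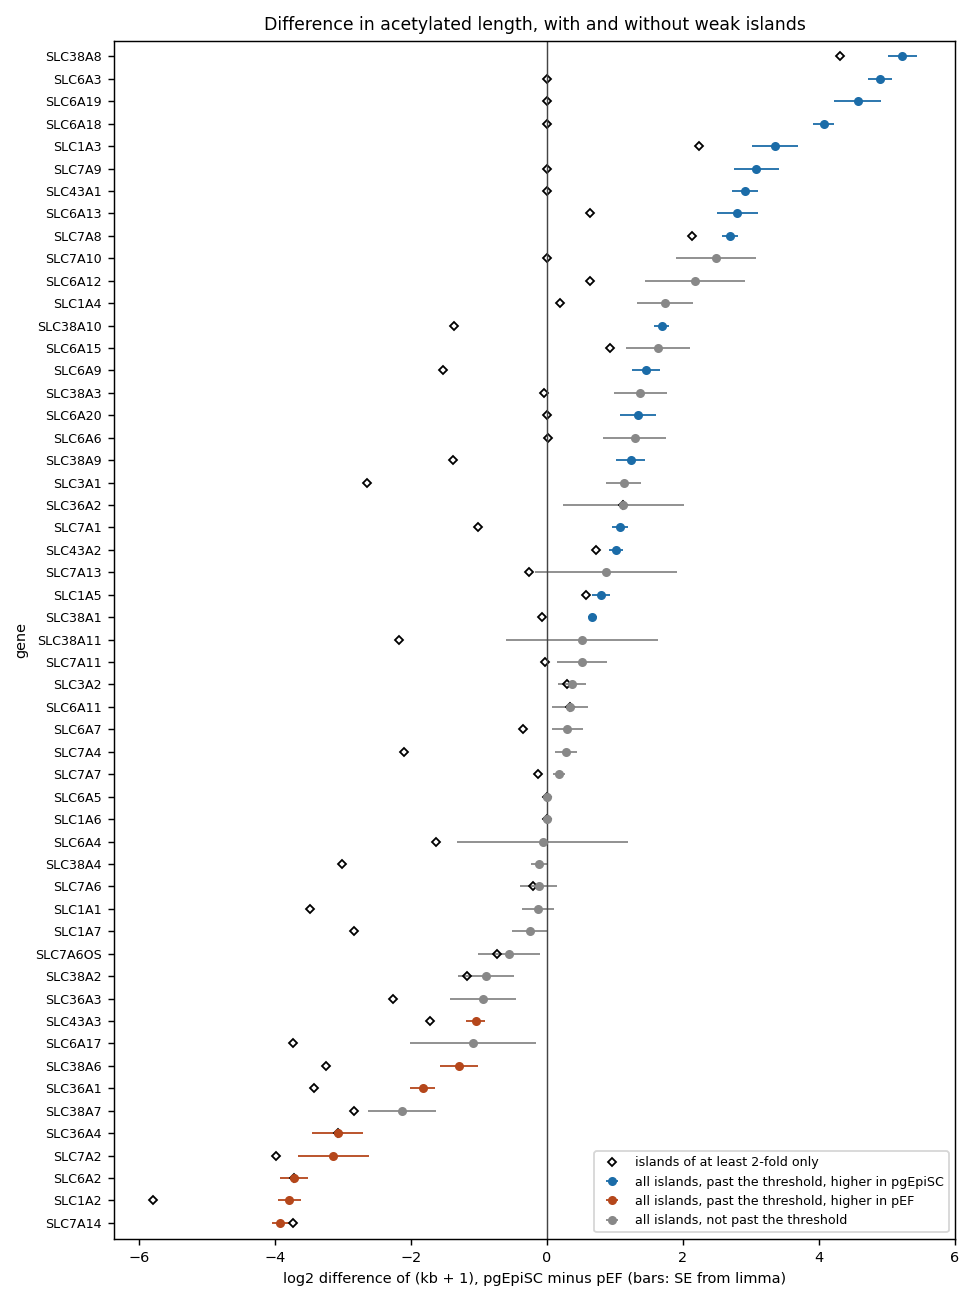
Log2 difference of (kb + 1), pgEpiSC minus pEF, by gene with its standard error, coloured by the outcome over all genes, and the same difference from islands of at least 2-fold over input as open diamonds. Most diamonds of the genes longer in pgEpiSC sit at or below 0, and those of SLC38A8 (4.31), SLC1A3 (2.24) and SLC7A8 (2.13) lie farthest above it.

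The tallest island at each gene was read as well. Among the 18 genes longer in pgEpiSC, the tallest island was at least 2-fold over input in both pgEpiSC libraries for 8 and under 2-fold in both for 6. It ranged from 1.41 to 3.15 times in pgEpiSC 1 and from 1.04 to 4.22 times in pgEpiSC 4. All 8 genes longer in pEF had a tallest island of at least 2-fold in both pEF libraries. It ranged from 4.02 to 12.6 times in pEF 1 and from 4.03 to 14.5 times in pEF 2. Over all genes with an island in the same library, these lowest values stood at percentiles 9.5 and 11.6. Passing 2-fold was thus usual for any gene in pEF and says little about these 8. In pgEpiSC 1 and 4, a tallest island of 1.98 times stood at percentiles 13 and 20.2. Among the genes with an island in the same library, the tallest islands of the transporters had a median percentile of 26.8, 34.4, 34.4 and 49, under the middle in every library.

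**Figure D4:**
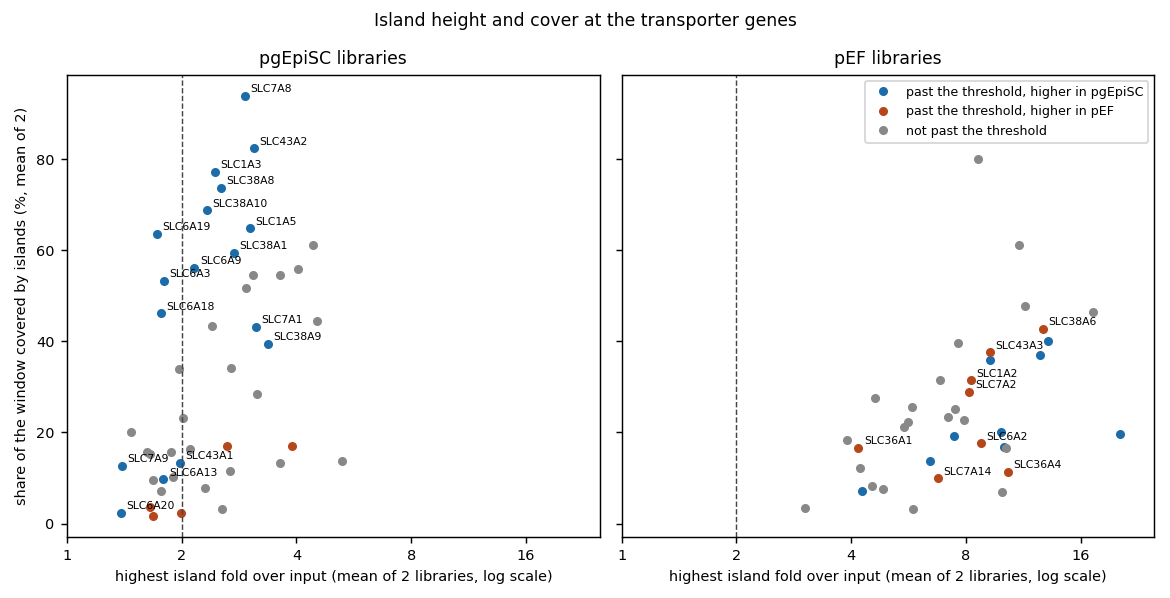
Share of the window covered by islands (%) against the tallest island's fold over input (log scale), each the mean of 2 libraries, with pgEpiSC on the left and pEF on the right and the dashed line at 2-fold. SLC7A8 has the widest cover of the genes longer in pgEpiSC, just under 3 times over input. All 8 genes longer in pEF lie right of 4 times, a height that most genes with a pEF island exceed.

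Gene ends were examined in windows of 2 kb on either side, since the gene table gives no strand and a start could not be told from an end. An island lay there in all 4 libraries for 21 transporters, beside 67.8% of all genes, in pgEpiSC alone for 10 (7.31% of all genes), in pEF alone for 5 (4.48%), in none for 5 (10.1%) and in other combinations for 13. The 5 with an end island in pEF alone were SLC1A2, SLC7A14, SLC36A1, SLC36A4 and SLC38A7. Those in pgEpiSC alone included SLC38A8, SLC6A3, SLC6A18, SLC6A19, SLC7A9 and SLC1A4. With islands of at least 2-fold, the counts were 14 in all 4 libraries, 1 in pgEpiSC alone (SLC38A8, beside 2.06% of all genes), 9 in pEF alone (12.4%) and 17 in none (16.4%), the first beside 48.9%.

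Reads inside islands were compared as well. Islands of the 4 libraries that overlap form 236 regions at the transporters, of which 48 (20.3%) had islands in pgEpiSC alone, 43 (18.2%) in pEF alone and 56 (23.7%) in all 4 libraries. Over all regions these shares were 21.9, 17.7 and 20.2%. In the 56 shared regions, which belong to 30 genes, ChIP reads were compared by edgeR. A region was kept whole where it reached beyond the 10 kb flank. The reads of a region are those inside each library's own islands, so a difference in reads also carries the difference in island length, and the kb of islands and the reads per kb are given beside it. Of the 56 regions 10 had more reads in pgEpiSC and 10 in pEF, each 17.9%, beside 22.6% and 23.3% of all shared regions, and 36 did not pass. The median log2 difference was 0.17 over the transporter regions and 0.00 over all. Of 25 regions at gene ends 6 passed for pgEpiSC and 4 for pEF, of 20 inside genes 3 and 3, and of 11 in the flanks 1 and 3.

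Of the 10 regions with more reads in pgEpiSC, 9 also had more kb of islands in both pgEpiSC libraries, and reads per kb of island were above in both pgEpiSC libraries for 6 and below for 3. Of the 10 with more reads in pEF, kb of islands was above in both pEF libraries for 6 and reads per kb for 7. Over all 56 regions, reads per kb were higher in both pEF libraries for 35 and in both pgEpiSC libraries for 11. The counts in this paragraph were not made over the shared regions of all genes, where pEF islands were also the taller ones. Nothing particular to the transporters is read from them.

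A region of 73.2 kb over the lower-coordinate end of SLC1A3 ran from 50.5 kb outside the gene to 22.7 kb inside it. Most of it thus lay outside the gene, in large part beyond the 10 kb flank. The region held 346, 341, 3.85 and 7.94 CPM (reads scaled to the TMM library size), a log2 difference of 5.86 ± 0.43. These reads came from 72.2, 69.6, 2 and 3.6 kb of islands, at 4.79, 4.91, 1.93 and 2.21 CPM per kb. Most of this difference was thus island length, and per kb it was 1.23 on the log2 scale. At SLC7A8 a region held 409, 413, 44.5 and 63.9 CPM (2.92 ± 0.25), from 68, 69.2, 10 and 13 kb of islands. Per kb these were 6.01, 5.96, 4.45 and 4.92 CPM, so the reads there mainly repeated the length.

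Some regions passed at genes whose length had not. At the higher-coordinate end of the taurine carrier SLC6A6, a region held 92.8, 101, 17.8 and 15.2 CPM (2.56 ± 0.21), from 16.4, 16.8, 3.2 and 3 kb of islands, and differed per kb by only 0.14 on the log2 scale. At the end of SLC6A15 there were 51.1, 60.2, 8.26 and 17.2 CPM (2.13 ± 0.41), with 8.25, 12.5, 3.44 and 7.17 CPM per kb. Length thus made up nearly all of the difference at SLC6A6 and about an equal share with reads per kb at SLC6A15.

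For pEF, the 41 kb region over SLC38A2, which covers the whole gene, held 155, 119, 334 and 318 CPM (-1.26 ± 0.21), from 29, 11, 37.2 and 38.8 kb of islands. The region reached to 35.7 kb past the lower-coordinate end of this 14.2 kb gene. Much of it thus lay outside the gene, and part beyond the 10 kb flank. Per kb the libraries overlapped, at 5.33, 10.8, 8.99 and 8.2 CPM. The end region of SLC7A11 held 71.1, 57.3, 112 and 153 CPM (-1.05 ± 0.25) in islands of similar extent, 16.2, 13.8, 14.4 and 16.6 kb, so here the reads differed per kb, at 4.39, 4.15, 7.78 and 9.23 CPM. The region inside SLC7A11 held 39.5, 35.8, 12.2 and 26.8 CPM (0.95 ± 0.42), which did not pass.

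SLC38A1 and SLC7A1 had more reads in pgEpiSC at the weaker of their end regions. That of SLC38A1 held 12, 19.8, 2.77 and 4.89 CPM (2.05 ± 0.46) and that of SLC7A1 held 10.7, 15.4, 4.71 and 4.54 (1.50 ± 0.34), and at the latter the reads per kb of island went the other way, at 2.33, 4.04, 5.89 and 4.54 CPM. The stronger end regions did not pass: the one of SLC7A1 held 82, 79.2, 85.6 and 74.2 (0.01 ± 0.19), and the one of SLC38A1 held 104, 115, 88.2 and 69.6 (0.47 ± 0.21). Likewise the main region of SLC1A5 held 123, 119, 134 and 100.2 (0.05 ± 0.21) and the largest region of SLC43A2 held 224, 198, 192 and 226 (0.02 ± 0.19). At these 4 widely expressed carriers the region with the most reads thus did not pass, with differences from 0.01 to 0.47.

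Further regions that passed for pgEpiSC lay inside SLC43A2 (0.87 ± 0.24) and beside SLC38A3 (0.74 ± 0.20). The latter ran from 20.1 to 63.7 kb past the lower-coordinate end of SLC38A3, a gene of 16.7 kb. It lay largely beyond the SLC38A3 window, which also holds parts of GNAT1 and GNAI2. SLC1A7 had a region of each kind inside the gene, at 1.25 ± 0.36 and -1.29 ± 0.30. For pEF, reads were higher at the ends of SLC43A3 (-1.90 ± 0.23) and SLC38A6 (-1.51 ± 0.26), whose lengths had also passed that way. They were higher inside SLC38A9 (-1.01 ± 0.21) and SLC38A4 (-0.85 ± 0.21), and in the flanks of SLC7A6 (-2.77 ± 0.35) and SLC3A2 (-0.65 ± 0.19). The other shared regions of SLC38A9 did not pass, with differences of 0.17, 0.08, 0.11 and -0.18. A flank region shared by SLC7A6 and SLC7A6OS also passed for pEF (-0.78 ± 0.24).

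Genes that act on the amino acids once inside were read from 3 lists. Of the 33 mTORC1 sensing genes measured, 14 had greater acetylated length in pgEpiSC, 1 in pEF, and 18 did not pass, with a median of 0.81. All genes had shares of 31.9% and 10.9% and a median of 0.46, as above. RPTOR, the scaffold of mTORC1, had 214.5, 235.3, 20.3 and 11.5 kb (3.79 ± 0.32), RRAGD, a GTPase that recruits the complex to the lysosome, 25, 46.6, 3.35 and 3.55 kb (2.98 ± 0.37), and TSC1, an inhibitor of the pathway, 40, 35.8, 6.87 and 4.87 kb (2.52 ± 0.20). LAMTOR3, of the lysosomal anchor, had 1.6, 1.8, 10.2 and 6.8 kb (-1.79 ± 0.26). Activators and inhibitors were thus both among the genes longer in pgEpiSC, the inhibitors including TSC2, NPRL3 and CASTOR2 beside TSC1. With islands of at least 2-fold alone, 2 of the list passed for pgEpiSC and 3 for pEF (7.06% and 16.5% of all genes), and with each library set to its median gene 11 and 3 (22.8% and 24.6%).

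Of 20 genes of the amino acid stress response, 2 passed in each direction and 16 did not, with a median of 0.04. GCN1, which activates the kinase of the pathway, had 25.2, 27.4, 11 and 12.4 kb (1.11 ± 0.11) and CEBPG, a partner of its transcription factor, 13, 14.4, 5.8 and 5.6 kb (1.13 ± 0.15). VLDLR, a lipoprotein receptor induced by the response, had 4.6, 4.8, 21 and 24.8 kb (-2.06 ± 0.15), and CEBPB had 8.2, 5.8, 14.1 and 14.3 kb (-0.94 ± 0.21). With islands of at least 2-fold 0 passed for pgEpiSC and 1 for pEF, and with each library set to its median gene 0 and 8, beside the shares of all genes just given.

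Of 25 enzymes of serine, glycine, glutamine and threonine metabolism measured, 5 passed for pgEpiSC, 4 for pEF and 16 did not, with a median of 0.11. TDH, which breaks down threonine, had 19.4, 17.2, 0 and 0 kb (4.27 ± 0.15), and SHMT1, which interconverts serine and glycine, 9.38, 11.7, 2.4 and 3.98 kb (1.48 ± 0.30). TDH was without an island in pEF. For pEF there were ALDH1L2, a mitochondrial folate enzyme, with 4.13, 5.13, 22 and 25.8 kb (-2.15 ± 0.18), GOT2, the mitochondrial aspartate aminotransferase, with 6.2, 4, 19.2 and 13.2 kb (-1.50 ± 0.32), and ALDH18A1, of proline synthesis, with 2.4, 3.6, 8.6 and 9.6 kb (-1.35 ± 0.25). With islands of at least 2-fold 2 enzymes passed for pgEpiSC and 4 for pEF, and with each library set to its median gene 3 and 9. The shares of all genes are those given with the mTORC1 list.

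Marker genes mostly followed the labels. The shares of all genes to set beside these counts were 31.9% for pgEpiSC and 10.9% for pEF. Of 8 pluripotent epiblast markers 7 were longer in pgEpiSC and NANOG did not pass, and their summed lengths were 228.1, 224.4, 30.6 and 36.4 kb. Of 8 fibroblast markers 6 were longer in pEF and PRRX1 and THY1 did not pass, with sums of 87, 54.6, 500.2 and 518.1 kb. Markers of cells that neither label names also had islands. Neural markers summed to 241.2, 239.9, 86.1 and 59.9 kb, with MAP2 and RBFOX3 longer in pgEpiSC, SOX1 at 0 in every library and PAX6 and NES not passing. Of 5 endothelial markers 3 were longer in pgEpiSC, with KDR at 0 throughout and sums of 59.3, 69.3, 15.2 and 21.8 kb. Of 6 blood markers CSF1R alone was longer in pgEpiSC, with sums of 93, 89.1, 29.8 and 35 kb, and of 6 extraembryonic markers 1 passed in each direction, with sums of 49.1, 40.5, 48.4 and 47 kb. With islands of at least 2-fold, 6 of 8 epiblast markers passed for pgEpiSC and 7 of 8 fibroblast markers for pEF. No neural, endothelial or blood marker passed for pgEpiSC under this limit, where the shares of all genes were 7.06% and 16.5%. For pEF there passed 1 neural marker (PAX6, -3.75), 1 endothelial marker (CDH5, -1.56) and 2 extraembryonic markers (GATA3, -4.74, and TFAP2A, -2.74). CDH5 had been longer in pgEpiSC with all islands. Carriers known from the nervous system did not go one way. SLC6A3 and SLC1A3 had greater length in pgEpiSC and SLC1A2 and SLC6A2 in pEF. SLC6A4, SLC6A15 and SLC6A17 did not pass, and SLC1A6 and SLC6A5 had no island in any library. The part of other cell types in these lengths was not tested.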

How the data were processed

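H3K27ac and input chromatin of pgEpiSC and pEF, 2 pairs of libraries each, was sequenced after immunoprecipitation. The submitters' processing notes name SICER 1.1, with BWA 0.7.15 and SAMtools 0.1.19. The genome build is not given in the sources used here. Deposited lists carry no header line. Their count columns hold the authors' ChIP and input reads per island, their fold column the authors' ratio of ChIP to input scaled by library size, and their p-value columns the authors' p and FDR, which reaches 1.00, so no FDR limit was applied. Islands come from 200 bp windows with gaps of at least 800 bp. In 191 scaffold names the prefix AEMK02 matches Sscrofa11.1, whose RefSeq gene table was used for names and distances, with no coordinate printed. It has no strand, so gene ends replaced promoters.

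Lengths were tested as log2(kb + 1) by limma 3.58.1 with a trend over 16298 genes, and ChIP reads in regions shared by 4 libraries (islands merged at 1 bp) by edgeR 4.0.16 (quasi-likelihood, TMM), both with Benjamini-Hochberg adjustment at 0.05. The median island had 274, 307, 275 and 334 reads of the ChIP library (order as in the report), and the 4 libraries limit precision more than counting does. A region absent from a list has no read count there, so reads were compared in shared regions only. The overlap code and both fits were tested on simulated data. R 4.3.3, DESeq2 1.42.0 (an alternative), Python 3.11.15, numpy 2.4.6, pandas 2.3.3 and matplotlib 3.10.9 were used.

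The genes and lists were chosen with earlier results of these data known. Values per library were given for SLC7A5, SLC3A2, SLC7A11, SLC1A5, SLC1A4, SLC7A1, SLC38A1, SLC38A2, SLC1A3, SLC6A6 and SLC43A2 whatever their result, for up to 10 genes per direction with the largest difference among those past the threshold, and for up to 3 per pathway list and direction; other values shown complete the role groups and were chosen after they were seen. SLC6A16, SAMTOR, PRODH and TUBB3 of the lists did not match the table. Input lists were not analysed here, and motifs and sequences were not used. A few genes counted in the totals are not reported here by name or drawn in the figures.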

Additional observations from a re-analysis of the deposited data

How the results depend on the processing

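The 18 transporters longer in pgEpiSC became 2, and the 8 longer in pEF became 13, with islands of at least 2-fold over input; centring on the median gene gave 13 for pEF. Leaving out each library in turn gave 8 to 14 for pgEpiSC and 1 to 4 for pEF. Over the other alternatives (pseudocounts of 0.2 and 5 kb, no flank, a 20 kb flank, an FDR under 1e-10, a mean of at least 1 kb), the counts were 14 to 22 and 7 to 10. In shared regions, leaving out a library gave 3 to 14 for pgEpiSC and 3 to 10 for pEF, the lowest pgEpiSC count coming without either pgEpiSC library; DESeq2, library size alone, at least 100 reads and the stricter overlap stayed within 1.5 times. End islands in pgEpiSC alone fell from 10 to 1, and in pEF alone rose from 5 to 9, with islands of at least 2-fold. Where a count changed, the cause was not tested.

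Of 27 named genes, 5 values changed sign, at SLC3A2 when centred (-0.26), at SLC7A11 with islands of at least 2-fold (-0.03) and when centred (-0.11), at SLC7A1 (-1.02) and at SLC38A1 (-0.07) with islands of at least 2-fold. Outside the 27, SLC6A9 (-1.53), SLC38A10 (-1.37) and SLC38A9 (-1.38), longer in pgEpiSC, also changed sign with islands of at least 2-fold. SLC38A8, SLC6A18, SLC6A3 and SLC7A14 passed without any 1 library, and every other of the 27 that had passed was lost without at least 1. Such fits have fewer samples, and the lone library is assumed to vary like the other type. At the genes that kept their call, 1 type had no island in either library. Where a library of the other type was left out, the only pair left thus had no spread, so those fits say little about stability. SLC6A18 and SLC6A3 also had no length left with islands of at least 2-fold. With 2 libraries per type, the fits rest on few degrees of freedom. No paired analysis was possible because the types share the number 1 alone (pgEpiSC 1 and 4, pEF 1 and 2).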
